A study of Mus musculus with 4 samples.

Results

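Endoneurial mesenchymal cells are the fibroblast-like cells that lie inside the fascicles of a peripheral nerve, among the axons and their Schwann cells. Those of the injured mouse sciatic nerve were examined at 3 days post-injury (3 DPI) by Drop-seq, a droplet method in which unique molecular identifiers (UMIs) count the captured transcripts of each gene in each cell. The cells were chosen by their own transcripts. A barcode of the 3 DPI library had to hold at least 200 genes and at most 10% UMIs of mitochondrial (mt-) genes. It also had to hold at least 3 summed UMIs of Osr2, Wif1, Etv1, Sox9, Matn4 and Meox1, at least 3 summed UMIs of Col1a1, Col1a2, Dcn, Lum and Pdgfra, and no UMI of Sox10, Pecam1 or Ptprc. This gave 234 cells of the 2281 that passed the quality limits at 3 DPI (10.3%, exact 95% interval 9.04 to 11.6), out of 13200 barcodes in all 4 libraries.

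The 3 DPI library came from distal sciatic nerve of adult wildtype CD1 mice after unilateral nerve resection, and its cells were cleared with myelin removal beads. The uninjured library came from sciatic nerves of adult wildtype CD1 mice and was prepared with the same kind of beads. A pair of libraries came from neonatal wildtype CD1 mice, P3-P4 pups whose cells were sorted by FACS for high Hoechst and no propidium iodide and P2-P3 pups whose cells were cleared with beads. All nerves were digested with collagenase and trypsin. The same rule gave 192 endoneurial mesenchymal cells in the uninjured nerve, 89 in the neonatal FACS library and 102 in the neonatal bead library. Each condition is 1 library, so no test between conditions was possible. A difference between conditions therefore cannot be told apart from a difference between libraries. Every interval given here is an exact 95% interval for counting error only.

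Mesenchymal cells of nerve come in layers. Epineurial cells form the outer sheath, perineurial cells wrap each fascicle, and endoneurial cells sit beside the axons, where they make collagens and proteoglycans. Sox9, Osr2, Etv1 and Meox1 encode transcription factors, Wif1 a secreted inhibitor of Wnt ligands and Matn4 a matrilin of the extracellular matrix. After a nerve is cut, the axons of the distal segment degenerate, Schwann cells lose their myelin, and monocytes enter the nerve. Mesenchymal cells of the distal nerve are known as a source of secreted ligands and of matrix in this setting.

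Expression is given as the UMIs of a gene summed over a class of cells per 1000000 UMIs of that class (CPM). In the 3 DPI cells a level of 100 CPM had an interval of 85.5 to 116 and a level of 1000 CPM one of 954 to 1048, and in the uninjured cells these were 77.0 to 128 and 924 to 1082. The 234 cells held 1754508 UMIs, with a median of 6698 UMIs per cell (691 to 27327). They were deeper than the 192 uninjured cells (median 3161), the neonatal FACS (4453) and bead cells (2429) and the 873 other mesenchymal cells of the 3 DPI library (1667), which had no UMI of the 6 endoneurial genes. Shares of cells with a UMI therefore depend on depth, and they were also computed after thinning each cell to 1000 UMIs. No barcode of a chosen 3 DPI cell occurred in another library.

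The genes of the rule describe the choice and are no finding. Wif1 was detected in 184 of the 234 cells, Sox9 in 179, Matn4 in 145, Osr2 in 135, Etv1 in 75 and Meox1 in 67. All 6 were detected in 17 cells and a single gene in 25. The summed endoneurial UMIs had a median of 9.5 and a maximum of 74. At the limit, 35 cells had exactly 3 of these UMIs, and 77 cells just outside had exactly 2, with medians of 3527 and 3393 UMIs per cell. The makeup of the sum differed between libraries chosen by the same rule. Wif1 stood at 724 CPM at 3 DPI, 15.9 in uninjured, 16.9 in neonatal FACS and 0 in neonatal bead cells. Osr2 stood at 195, 989.6, 189 and 432 CPM in the same order. In the uninjured nerve, 4 of the 192 cells had a Wif1 UMI. Without Wif1, 189 of the 234 cells still had at least 3 endoneurial UMIs.

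Markers that the rule did not use were examined next. Apod encodes a lipid-binding apolipoprotein, Abca8a a lipid transporter and Plxdc1 a plexin-domain receptor, and all are known in endoneurial cells. Apod stood at 48042 CPM at 3 DPI, 69206 in uninjured, 2954 in neonatal FACS and 6338 in neonatal bead cells, against 3342 in the other mesenchymal cells at 3 DPI. Per cell, Apod ran from 1.95 to 1723 UMIs per 10000 with a median of 528. Plxdc1 stood at 179.5, 293, 179 and 246 CPM, against 11.8 in other mesenchymal cells. Abca8a stood at 409.8, 1114, 394 and 599.5 CPM, against 219. Apod was high in both adult classes of endoneurial cells and lower in the neonatal classes, whereas Plxdc1 was above 100 CPM in all 4. The fourth gene of this list, the hedgehog co-receptor Cdon, was low in the endoneurial cells (10.8 CPM) and higher in the other mesenchymal cells (88.4). In a clustering that left out the genes of the rule, 170 of the 234 cells (72.6%) fell into 1 of 16 clusters and made up 72.3% of it. The label therefore holds for most of the cells, and 15 and 14 cells fell into clusters that are described with the variation among the cells.

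Markers of other nerve cells were low but not absent. The summed markers of Schwann cells stood at 156 CPM at 3 DPI, against 3904 in Sox10-positive cells of the library. The markers of endothelial cells stood at 119.7 CPM against 5286 in Pecam1-positive cells. The markers of macrophages and monocytes stood at 203 CPM and had a UMI in 152 of the 234 cells, against 11765 CPM in Ptprc-positive cells and 12.7 in uninjured endoneurial cells. Sox10-positive and Pecam1-positive cells of the 3 DPI library held similar sums, at 178 and 160.2 CPM. All 7 macrophage genes analysed had UMIs in the 3 DPI endoneurial cells, and Lyz2 alone stood at 146 CPM. Epineurial markers were lower than in the other mesenchymal cells, at 527 against 4186 CPM. The sum of the 7 perineurial markers went the other way, at 128 CPM with a UMI in 105 of the 234 cells. It stood at 95.8 CPM in other mesenchymal cells, 53.6 in those with a Pdgfra UMI and 41.4 in uninjured endoneurial cells. In the 170 cells that shared a cluster, Cldn1 (76 UMIs) and Slc2a1 (66) led this sum. Itgb4 had 21 UMIs there, and Casq2, Lypd2, Msln and Krt19 had 9 or fewer each. Only 2 of the 7 genes reached the limit of 25 CPM for comparison, so the sum does not describe perineurial markers as a group.

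**Figure D1:**
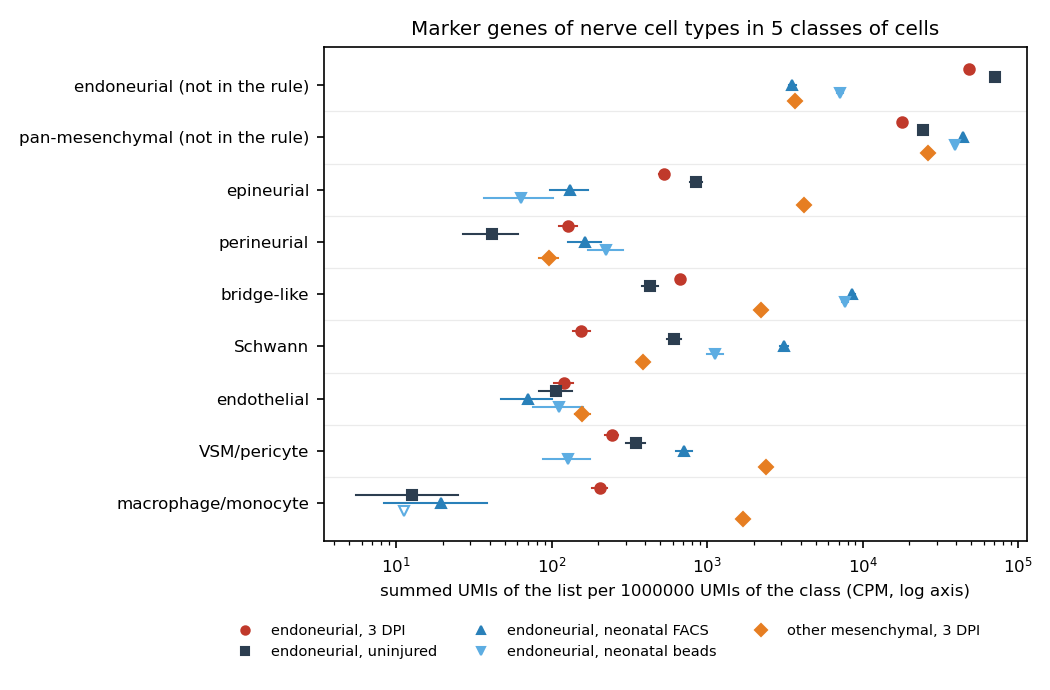
Summed UMIs of marker lists per 1000000 UMIs (CPM, log axis) in endoneurial cells of the 4 libraries and in other mesenchymal cells at 3 DPI. Bars are exact Poisson 95% intervals and the open symbol marks a list with 0 UMIs, drawn at the value of 3 UMIs. The adult endoneurial classes lie highest for the endoneurial list, whose sum in them is nearly all Apod. The neonatal classes lie highest for the bridge-like list, while macrophage/monocyte markers lie higher at 3 DPI than in uninjured cells.

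The first comparison asked how endoneurial mesenchymal cells of the injured nerve differed from those of the uninjured nerve. The injured cells had more transcripts of some chemokines and cytokines such as Ccl2, Ccl9 and Lif, of the glycoproteins Spp1 and Tnc, of the protease inhibitor Timp1 and of cell division genes. They had fewer transcripts of cholesterol synthesis genes, immediate-early genes and several genes of the resting matrix. Among 6744 genes at 25 CPM or more in at least 1 class, 1327 were at least 2-fold higher at 3 DPI, which is 19.7% of the genes compared, and 586 were at least 2-fold lower, which is 8.69%. These shares are the background for every list count of this comparison. The median of all log2 ratios was 0.29, and with every ratio divided by this median 865 genes were higher and 911 lower, so the balance of higher and lower genes depends on the scaling. With cells thinned to 1000 UMIs, 1036 genes were lower. In the other mesenchymal cells of the same libraries, 792 of 7134 genes were higher at 3 DPI than in uninjured nerve (11.1%) and 501 lower (7.02%).

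Secreted signals came first. Ccl2, which draws monocytes, was found at 2287 CPM at 3 DPI, 186 in uninjured, 264 in neonatal FACS, 189.9 in neonatal bead and 318 in other mesenchymal cells. It was 12.3-fold (10.2 to 14.9) higher than in uninjured cells and 7.19-fold (6.61 to 7.82) higher than in the other mesenchymal cells. Ccl9, a chemokine of myeloid cells, was found at 759.8, 90.7, 7.26, 11.2 and 105 CPM in the same order, with a ratio to uninjured of 8.38-fold (6.43 to 11.1). Both chemokines were thus highest in the injured endoneurial cells among these 5 classes. Ptprc-positive cells of the library held 749 CPM of Ccl2 and 653 of Ccl9. Of the 5 CC chemokines compared, 3 were higher and none lower, with a median log2 ratio of 1.37. Ccl7 (931 against 546 CPM) and Ccl11, an attractant of eosinophils (1302 against 1663), stayed within 2-fold. Of the CXC and CX3C chemokines, 2 of 5 were higher and 2 lower. Cxcl5 was higher at 49.0 against 4.77 CPM, and Cxcl1, an attractant of neutrophils, was lower at 516 against 1785 CPM.

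Among the IL-6 and IL-1 family genes and alarmins, 3 of 8 were higher and 1 was lower. Lif encodes a cytokine that signals through gp130. Lif stood at 66.1 CPM at 3 DPI, 7.96 in uninjured and 5.89 in other mesenchymal cells, a ratio of 8.31-fold (3.46 to 26.1) to uninjured. Il1rn, the antagonist of the IL-1 receptor, stood at 48.4 CPM at 3 DPI and had no UMI in uninjured cells, so it was at least 10.2-fold higher against a floor of 3 UMIs. The alarmin Il33 was high in both adult classes, at 641 CPM at 3 DPI and 888 in uninjured cells, and stayed within 2-fold. The neonatal cells held 72.6 and 81.9 CPM of Il33. Il34 was the lower gene, at 14.2 against 71.6 CPM.

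The receptors for such signals were mixed, with 7 of 23 higher and 4 lower, against 19.7% and 8.69% of all genes compared. Osmr, the oncostatin M receptor, stood at 132 against 27.0 CPM, Tnfrsf12a, the TWEAK receptor, at 163 against 15.9, and the hyaluronan receptor Cd44 at 264 against 38.2. Il6st, which encodes gp130 itself, was higher at 736 against 307 CPM. Il1rl1, the receptor of IL-33, stood at 50.2 CPM and had no UMI in uninjured cells, and 78 of its 88 UMIs came from 14 cells, 40 of them from a single cell. The GDNF family receptors went the other way. Gfra1 stood at 58.1 against 379 CPM, which is 6.51-fold (5.14 to 8.30) lower, and Gfra2 at 39.9 against 132. 

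Growth factors and their modulators were more often higher than lower. Of the FGF, EGF, PDGF and IGF ligands and IGF binding proteins, 9 of 14 were higher and none lower, with a median log2 ratio of 1.18. Igfbp3 stood at 241 against 11.1 CPM and was 21.6-fold higher, Ctgf, a matricellular growth modulator, at 303 against 43.0, and Igf1 at 889.7 against 406. Areg, an EGF receptor ligand, stood at 29.6 CPM with no UMI in uninjured cells. In the 170 cells that shared a cluster, its 28 UMIs came from 2.35% of the cells. Among the angiogenic ligands, 4 of 6 were higher and none lower, including Angpt1 at 51.9 against 1.59 CPM and Angptl4 at 196 against 70.0. Vegfa was within 2-fold, at 58.1 against 39.8 CPM. Of 5 neurotrophic factors, 1 (Gmfb) was higher and none lower, a share near that of all genes.

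BMP and activin genes differed in both directions. Of 12 ligands and inhibitors, 7 were higher and 2 lower. Inhba, the activin A subunit, stood at 152 CPM at 3 DPI, 4.77 in uninjured, 0 in neonatal FACS, 11.2 in neonatal bead and 61.4 in other mesenchymal cells. It was 31.8-fold (10.8 to 155) higher than in uninjured cells. In the 170 cells that shared a cluster, Inhba stood at 124 CPM and had a UMI in only 17.6% of the cells. Bmp7 stood at 136, 58.9, 29.0, 22.3 and 7.86 CPM in the same order, so it was highest in injured endoneurial cells and lowest in the other mesenchymal cells. Tgfb1 was higher (38.8 against 9.55 CPM), while Bmp4 and Bmp5 were lower (1.71 against 25.5 and 16.0 against 38.2). Of the axon guidance ligands, 3 of 11 were higher and 3 lower, against 19.7% and 8.69% of all genes compared. Sema7a was higher, at 103 against 3.18 CPM, and Sema3b was lower, at 27.4 against 199 CPM.

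Matrix genes differed in both directions. Spp1, which encodes the secreted glycoprotein osteopontin, stood at 8825 CPM at 3 DPI, 200.5 in uninjured, 21.8 in neonatal FACS, 26.1 in neonatal bead and 1124 in other mesenchymal cells. Per cell it ran from 0 to 591 UMIs per 10000 with a median of 47.0, against a median of 0 in uninjured cells. It was 44.0-fold (36.9 to 52.9) higher than in uninjured cells, and other classes of the 3 DPI library also held it, at 2526 CPM in Ptprc-positive and 493 in Pecam1-positive cells. Tnc, the tenascin of wounded tissue, stood at 358 CPM at 3 DPI with no UMI in uninjured cells. In the other mesenchymal cells Tnc stood at 367 CPM, about the level of the endoneurial cells. Of the matricellular proteins and proteoglycans compared, 12 of 21 were higher and 3 lower, with a median log2 ratio of 1.13. Fibronectin (Fn1) stood at 5284 against 1298 CPM and the calcification inhibitor Mgp at 1853 against 280.0. Sparcl1 (644 against 2560.0 CPM), Ogn (486 against 1386) and Matn2 (353 against 1138) were lower.

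Collagens were divided, with 5 of 14 higher and 2 lower. Col8a1 (1843 against 603 CPM), Col6a3 (785 against 301), Col11a1 (326 against 98.6) and Col14a1 (255 against 46.1) were higher. Col3a1, a major fibrillar collagen, stood at 7798 against 16601 CPM and Col15a1, which lies at basement membranes, at 909 against 2678, and both were lower. Of the basement membrane genes, 3 of 11 were lower and none higher. Lama2, the laminin chain around Schwann cells and muscle fibres, stood at 170.4 CPM at 3 DPI, 873 in uninjured, 288 in neonatal FACS and 354 in neonatal bead cells, so the injured cells had the lowest level of the 4. Of the genes for folding and crosslinking of collagen, 5 of 14 were higher and none lower. Lox stood at 255 against 17.5 CPM and Plod2 at 204 against 19.1.

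Of the matrix-cutting enzymes and their inhibitors, 10 of 21 were higher and 3 lower. Timp1, an inhibitor of matrix metalloproteinases, had the largest ratio to uninjured cells among genes at 50 CPM or more that had a UMI there. For genes with none, such as Saa3 and Tnc, the ratio is a lower bound and cannot be ranked against it. It stood at 1918 CPM at 3 DPI, 17.5 in uninjured, 31.5 in neonatal FACS, 37.2 in neonatal bead and 447 in other mesenchymal cells, and was detected in 220 of the 234 cells. Timp1 was therefore 109.6-fold (61.2 to 219.8) higher than in uninjured and 4.29-fold (3.99 to 4.62) higher than in other mesenchymal cells. The cathepsin Ctsl stood at 4730.1 against 1173 CPM, the protease inhibitor Serpine2 at 1391 against 359.6, and Mmp9 at 119.7 with no UMI in uninjured cells, although 1 cell held 101 of its 210 UMIs. Mmp2 (1138 against 2337 CPM), Adamts1 (339 against 705) and Adamts5 (61.0 against 208) were lower.

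Acute phase genes differed in both directions. Of 19 compared, 8 were higher and 4 lower. Saa3, a serum amyloid A made outside the liver, stood at 373 CPM at 3 DPI with no UMI in the other 3 classes of endoneurial cells and 115 CPM in other mesenchymal cells. Saa1 stood at 165 CPM at 3 DPI, 11.1 in uninjured and 10.3 in other mesenchymal cells. Saa1 and Saa2 are close copies, and reads that they share could have been counted for either. The pentraxin Ptx3 stood at 384 against 33.4 CPM, which is 11.5-fold (7.45 to 18.7) higher. Ceruloplasmin (Cp), a copper-carrying ferroxidase, went the other way, at 2009 against 5058 CPM, as did the metallothionein Mt1 (356 against 1516) and Socs3 (156 against 1012). The iron carrier transferrin (Trf) stood at 2368 CPM at 3 DPI, 858 in uninjured, 38.7 in neonatal FACS, 81.9 in neonatal bead and 154 in other mesenchymal cells, so it was highest in the injured endoneurial cells.

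**Figure D2:**
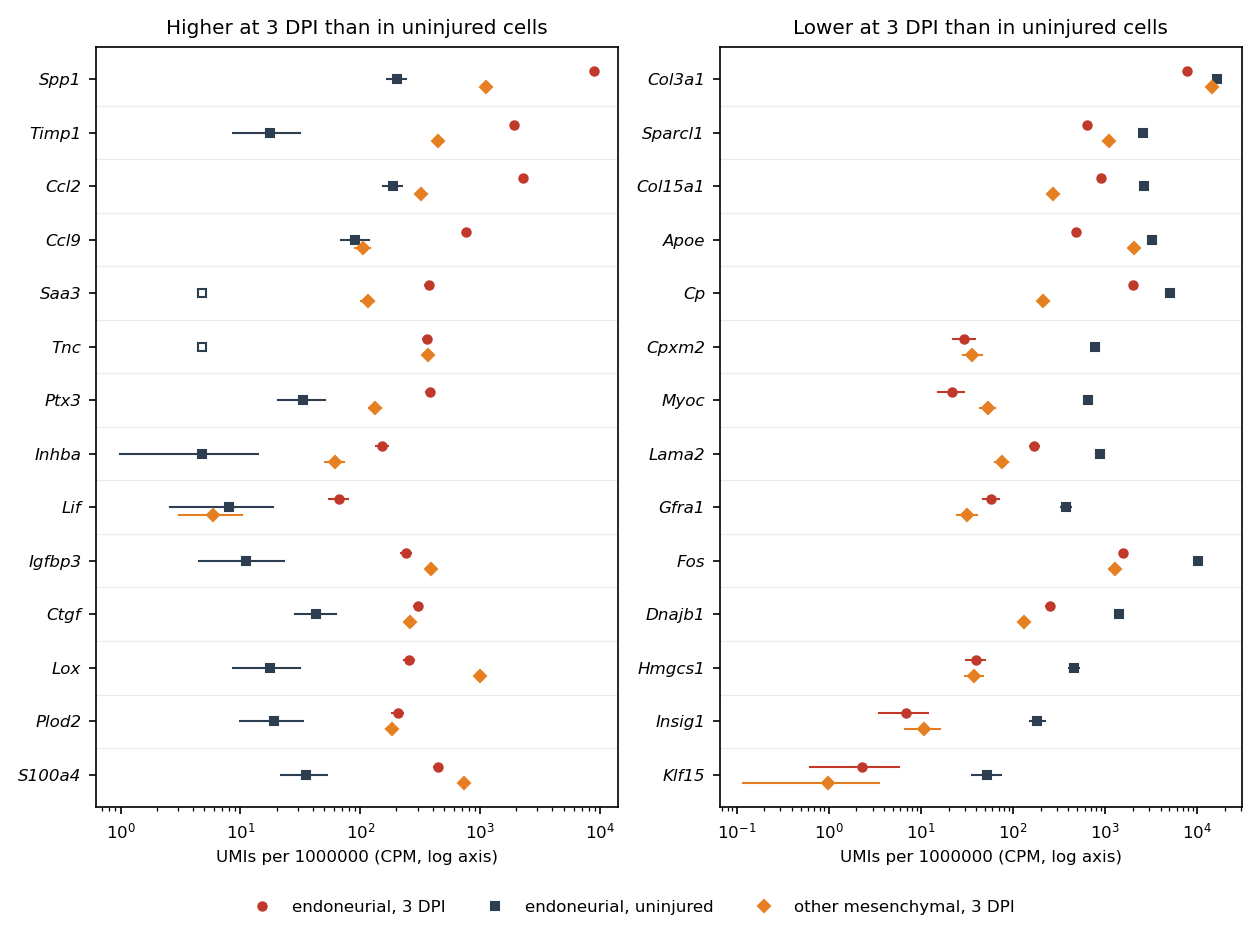
CPM on a log axis of 14 genes higher (left) and 14 genes lower (right) at 3 DPI than in uninjured endoneurial cells, with other mesenchymal cells at 3 DPI beside them. Bars are exact Poisson 95% intervals and open symbols mark 0 UMIs, drawn at the value of 3 UMIs. Spp1, Timp1, Ccl2 and Ccl9 lie higher in the endoneurial cells at 3 DPI than in both other classes, whereas Tnc, Ctgf and Plod2 lie at similar levels in both mesenchymal classes of the injured nerve.

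Metabolic genes were among the most uniform lists. Of the glycolysis and hypoxia genes, 14 of 19 were higher and 1 lower, with a median log2 ratio of 1.27. Pkm, which makes pyruvate, stood at 457 against 81.1 CPM, Ldha, which turns it into lactate, at 543 against 156, and the oxygen-regulated factor Hif1a at 362 against 82.7. Slc16a3, a lactate exporter, stood at 51.9 against 1.59 CPM. Ndrg1 was the lower gene, at 52.4 against 228 CPM. The other mesenchymal cells differed in the same direction for Pkm (323 CPM at 3 DPI against 158 uninjured) and Ldha (377 against 168). Of the contractile and cytoskeletal genes, 11 of 17 were higher and 1 lower. S100a4 stood at 442 against 35.0 CPM, Tpm1 at 1259 against 249.8 and Anxa2 at 1781 against 519. Acta2, the smooth muscle actin that marks myofibroblasts, stood at 47.9 CPM at 3 DPI and 47.7 in uninjured cells, with 735 in the other mesenchymal cells.

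Transcription factors differed in both directions. Of the transcription factors of growth and mesenchymal state, 6 of 17 were higher and 2 lower. Stat3, which carries gp130 signals, stood at 191 against 71.6 CPM, Runx1 at 71.8 against 25.5 and Twist1, a factor of embryonic mesenchyme, at 76.9 against 35.0. Myc (25.1 against 105 CPM) and Id3, a target of BMP signalling (175 against 609), were lower. Of the genes for lysosomes and clearance of debris, 3 of 16 were higher and 2 lower, shares near those of all genes compared (19.7% and 8.69%). The lectin galectin-3 (Lgals3) stood at 308 CPM at 3 DPI, 27.0 in uninjured, 2.42 in neonatal FACS and 0 in neonatal bead cells, with 1483 in Ptprc-positive cells. Mertk, a receptor that takes up dead cells, was lower at 5.70 against 41.4 CPM. Among the Wnt modulators other than Wif1, Sfrp4 (245 against 52.5 CPM) and Dkk2 (42.2 against 7.96) were higher, and Sfrp2 was lower (37.6 against 92.3), although without the cells of the highest doublet scores its log2 ratio was 0.61, a higher level at 3 DPI. Of the interferon and antigen presentation genes, 2 of 9 were higher and 2 lower, with a median log2 ratio of 0.31. The share of higher genes and the median were near those of all genes compared (19.7% and 0.29). Cd74, the invariant chain of MHC class II, was higher at 37.6 against 3.18 CPM, with 6876 in Ptprc-positive cells, and the proteasome subunit Psmb8 was higher at 48.4 against 23.9. Irf1, an interferon-regulated factor (21.1 against 293), and the MHC class I gene H2-D1 (349.96 against 786) were lower.

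The lowest list was cholesterol synthesis. Cells make cholesterol from acetyl-CoA through Hmgcs1, Sqle, Cyp51 and further enzymes, and the transcription factor SREBP-2 (Srebf2) switches these genes on together with Insig1 when sterols are scarce. The list was chosen after its values had been seen. Of 21 genes compared, 20 were at least 2-fold lower and none higher, with a median log2 ratio of -3.11, against the 8.69% of all genes compared that were lower. Only 4 of the 25 genes of the list reached 25 CPM in either mesenchymal class at 3 DPI. Most of the 21 were therefore compared only because of their level in uninjured cells and could not have counted as higher. Hmgcs1 stood at 39.3 CPM at 3 DPI, 459.8 in uninjured, 174 in neonatal FACS and 115 in neonatal bead cells. It was 11.7-fold (8.96 to 15.4) lower than in uninjured cells. Sc4mol, the methylsterol oxidase of the pathway, stood at 16.0, 326, 79.8 and 74.5 CPM in the same order, and Insig1, which holds back the pathway, at 6.84, 185, 33.9 and 41.0. The uninjured cells were the highest of the 4 classes and the injured cells the lowest for these 3 genes. The other mesenchymal cells showed the same direction, with Hmgcs1 at 37.8 CPM at 3 DPI against 179 uninjured and Insig1 at 10.8 against 63.2. Apoe, a lipid carrier, was also lower in the endoneurial cells, at 484 against 3192 CPM, while the cholesterol exporter Abca1 was higher, at 76.9 against 7.96.

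The bases just upstream of the start of these genes are shown because the genes differed together. Of the 20 lower genes, 13 matched an entry in RefSeq (GRCm38.p6), and the 250 bases before each start were searched on both strands for the sterol regulatory element TCACCCCAC and for CCAAT, the letters bound by NF-Y. CCAAT was found in 12 of the 13 genes, against 37.5% of 27025 gene symbols, and the sterol element in Hmgcs1 alone, against 0.555%. A match is a description of letters and not a site. The windows of Hmgcs1 (chr13:119690101-119690350, + strand), Sc4mol (named Msmo1 in RefSeq, chr8:64733579-64733828, - strand) and Hsd17b7, which encodes a sterol ketoreductase (chr1:169969206-169969455, - strand), run 5′ to 3′ and end at the base before the start, with matches on either strand in capitals (ATTGG is CCAAT read on the other strand).
Hmgcs1: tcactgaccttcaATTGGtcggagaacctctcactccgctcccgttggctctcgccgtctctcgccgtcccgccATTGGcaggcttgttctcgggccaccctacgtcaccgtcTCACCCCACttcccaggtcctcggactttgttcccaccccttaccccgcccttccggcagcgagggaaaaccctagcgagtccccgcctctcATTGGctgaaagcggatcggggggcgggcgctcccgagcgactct
Sc4mol: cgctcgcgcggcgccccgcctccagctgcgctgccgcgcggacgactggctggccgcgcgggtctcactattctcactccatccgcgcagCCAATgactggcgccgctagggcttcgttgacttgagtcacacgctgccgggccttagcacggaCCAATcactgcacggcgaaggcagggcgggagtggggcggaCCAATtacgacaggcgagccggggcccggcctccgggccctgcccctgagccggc
Hsd17b7: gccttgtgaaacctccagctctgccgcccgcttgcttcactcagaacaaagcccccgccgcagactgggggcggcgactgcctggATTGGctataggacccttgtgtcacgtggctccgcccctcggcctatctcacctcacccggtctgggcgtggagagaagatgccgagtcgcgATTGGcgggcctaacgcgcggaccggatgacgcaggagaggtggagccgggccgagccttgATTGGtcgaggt
Each window shown held CCAAT 3 times, and these were the windows with the most matches. Windows of the other genes held at most 2, as in Idi1, and several held 1, as in Lss. The window of Acat2 held none. Hsd17b7 stood at 7.98 CPM at 3 DPI, 47.7 in uninjured, 43.6 in neonatal FACS and 14.9 in neonatal bead cells.

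Immediate-early genes, which cells switch on quickly after growth signals or stress, were lower at 3 DPI. Of 20 immediate-early and heat-shock genes, 15 were lower and none higher, with a median log2 ratio of -2.01. Fos stood at 1571 CPM at 3 DPI, 10221 in uninjured, 670.2 in neonatal FACS and 2458 in neonatal bead cells. The uninjured cells were the highest of the 4, and the injured cells lay between the neonatal preparations. In other mesenchymal cells Fos stood at 1283 CPM at 3 DPI and 4817 uninjured. Further genes that were at least 2-fold lower included Cpxm2, a secreted carboxypeptidase-like protein (29.6 against 781 CPM), Myoc, which encodes myocilin (21.7 against 657), and the glucocorticoid-responsive factor Klf15 (2.28 against 52.5). All 6 Schwann cell markers compared were lower, and their summed level was 156 against 616 CPM. Lyz2, a gene of macrophages, went the other way, at 146 against 3.18 CPM. It stood at 8209 CPM in Ptprc-positive cells and at 363 in barcodes with fewer than 200 genes. The part of free RNA in these values was not tested.

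**Figure D3:**
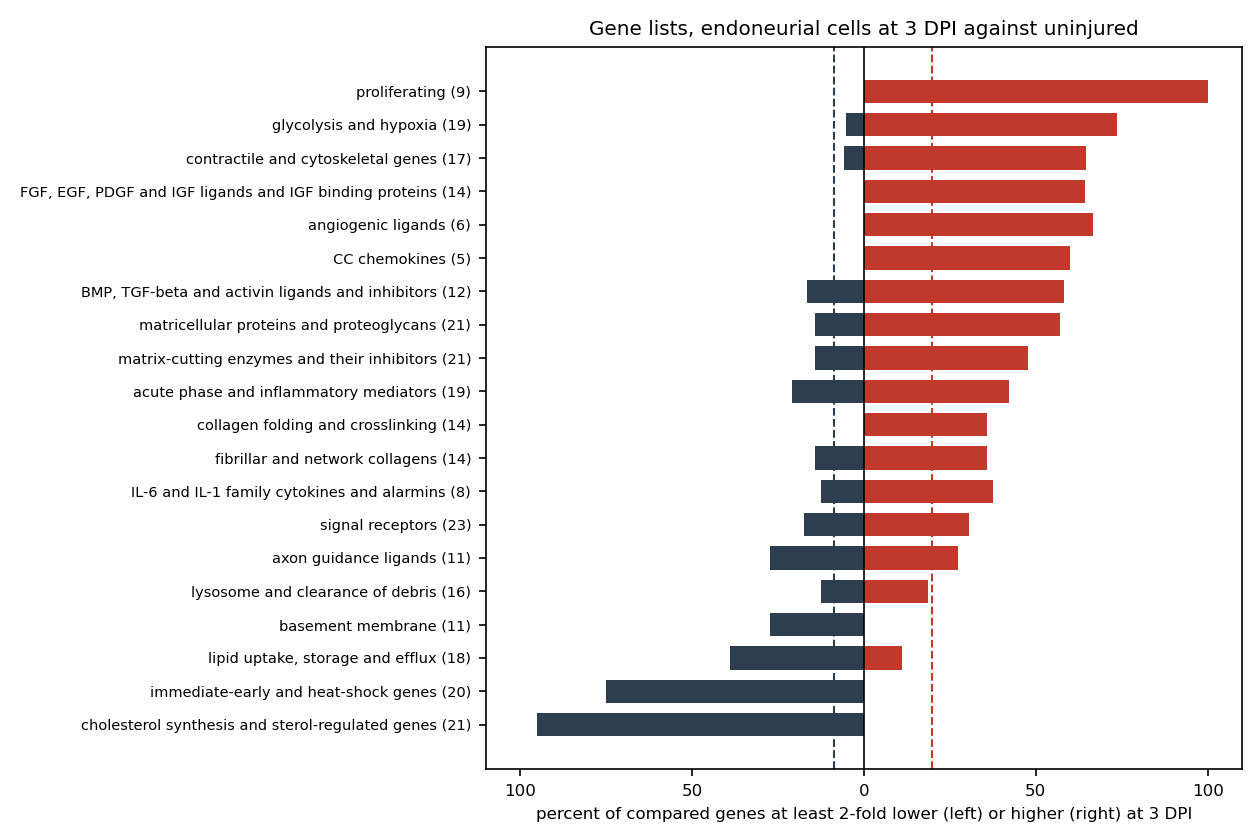
Percent of the compared genes of each list that were at least 2-fold lower (left, dark) or higher (right, red) in endoneurial cells at 3 DPI than in uninjured cells, with the number of genes compared in brackets. Dashed lines mark all 6744 genes compared (8.69% lower, 19.7% higher). Proliferating, glycolysis and growth factor lists lie to the right and the cholesterol and immediate-early lists to the left.

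Transcripts of dividing cells were found at 3 DPI. All 9 proliferation genes compared were higher, with a median log2 ratio of 3.73. The 12 genes of the list summed to 717 CPM at 3 DPI and 70.0 in uninjured cells. Most of the 9 therefore passed the limit of 25 CPM only through the 3 DPI cells and could not have counted as lower. Top2a, a topoisomerase of dividing cells, stood at 155 CPM at 3 DPI, 1.59 in uninjured, 116 in neonatal FACS and 55.9 in neonatal bead cells. A UMI of Top2a or Mki67 was found in 45 of the 234 cells (19.2%, 14.4 to 24.9), against 1 of 192 uninjured cells (0.521%, 0.0132 to 2.87). After thinning to 1000 UMIs per cell the shares were 6.14% (14 of 228, 3.40 to 10.1) and 0.532% (1 of 188, 0.0135 to 2.93). These intervals did not overlap, but they and those that follow cover counting error among cells only. Each condition is 1 library, so a difference between conditions cannot be told apart from a difference between libraries. The thinned share was 9.30% (4.10 to 17.5) in neonatal FACS, 7.78% (3.18 to 15.4) in neonatal bead and 9.74% (7.49 to 12.4) in other mesenchymal cells at 3 DPI, and the intervals of all 3 overlapped that of the endoneurial cells. Ptprc-positive cells (5.22%, 6 of 115) also had an interval that overlapped it. Sox10-positive cells had a higher share of 27.5% (15.9 to 41.7), and this interval did not overlap that of the endoneurial cells.

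**Figure D4:**
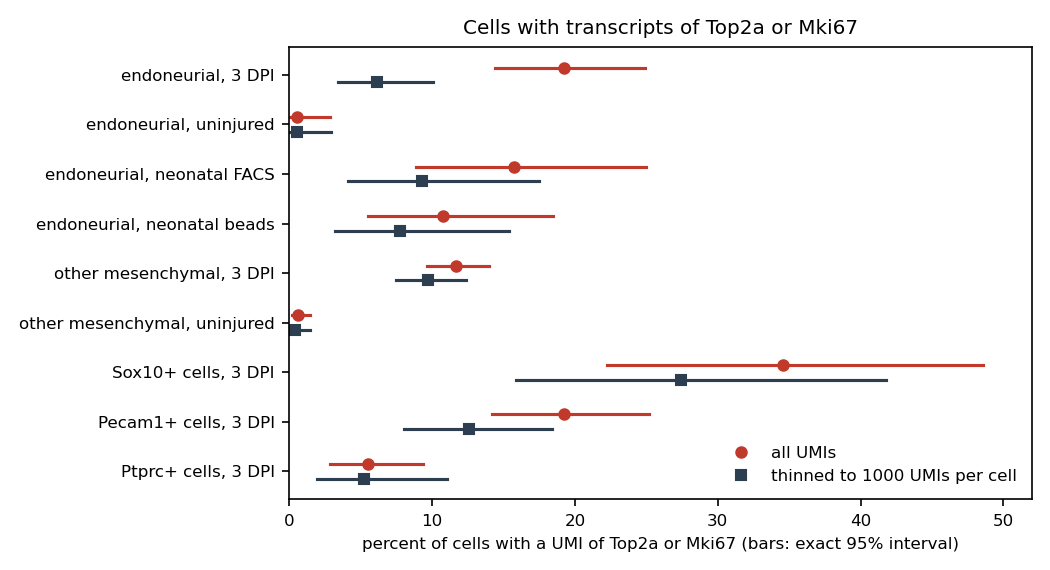
Percent of cells with a UMI of Top2a or Mki67 in 9 classes, with all UMIs (circles) and after thinning to 1000 UMIs per cell (squares). Bars are exact 95% intervals. Endoneurial cells at 3 DPI lie at 19.2% with all UMIs and at 6.14% thinned, above uninjured cells in both cases.

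The second comparison set the endoneurial cells beside the 873 other mesenchymal cells of the same library. The endoneurial cells had more transcripts of several secreted genes, of the matrix genes Col2a1, Epyc and Col11a1 and of FGF and ERK feedback genes. They had fewer of epineurial, Wnt-modulating and interferon genes. Of 7031 genes compared, 359 were at least 2-fold higher (5.11%) and 683 lower (9.71%), and 628 and 1205 after thinning. The other mesenchymal class was mixed. Genes at 2-fold or more lower in the endoneurial cells included mast cell genes such as Cpa3 (1.14 against 137 CPM), the mural gene Rgs5 (43.9 against 1120.2) and the monocyte receptor Ccr2 (4.56 against 86.4). In the clustering, 117 of the 873 cells fell into a cluster of 201 shallow cells (median 650 UMIs). Its leading genes included Gcg and Apod. Another 9 fell into the cluster that held most of the endoneurial cells. The part of all such cells in the higher and lower genes was not tested. Set against only the 283 other mesenchymal cells with a Pdgfra UMI, the endoneurial cells had 465 of 6911 genes higher (6.73%) and 586 lower (8.48%).

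Tenm2, a teneurin adhesion protein, had the largest ratio in favour of the endoneurial cells. It stood at 242 CPM, 138 in uninjured, 138 in neonatal FACS and 212 in neonatal bead endoneurial cells, and at 7.86 in other mesenchymal cells at 3 DPI. The ratio to the latter was 30.8-fold (18.8 to 54.4). Nipal1, a magnesium transporter, stood at 280.4 against 10.8 CPM and the cell cycle inhibitors Cdkn2a at 332 against 13.8 and Cdkn2b at 337 against 26.0. Cdkn2a was also high in uninjured cells (259 CPM) and lower in the neonatal cells (72.6 and 41.0). Gcg, the gene of glucagon, was found at 75.8 against 3.93 CPM and Car4, a carbonic anhydrase, at 59.8 against 3.44. Col26a1, a collagen, stood at 250.2 against 11.8 CPM and was higher still in the neonatal cells (479 and 503). Nt5e, the ectoenzyme CD73, stood at 173 against 11.3 CPM.

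Cartilage-type matrix genes differed in both directions. In this list, also chosen after its values had been seen, 3 of 5 genes compared were higher and 2 lower than in other mesenchymal cells. The lower genes were Comp (6.27 against 117 CPM) and lubricin, Prg4 (27.9 against 215), and the higher ones Col2a1, Epyc and Col11a1 (326 against 45.2). Col2a1, the main collagen of cartilage, stood at 451 CPM at 3 DPI, 92.3 in uninjured, 244 in neonatal FACS, 343 in neonatal bead and 29.0 in other mesenchymal cells. Epyc, a small proteoglycan, stood at 604, 263, 455, 640.5 and 50.6 CPM. Both were several times higher in all endoneurial classes than in the other mesenchymal cells at 3 DPI. Col9a2, another collagen of cartilage, stood at 18.2 CPM at 3 DPI, 97.1 in uninjured, 283 in neonatal FACS and 235 in neonatal bead cells. Sox9, which activates Col2a1 in cartilage, was used by the rule, and no relation to it is read from these values.

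FGF and ERK feedback genes were higher in the endoneurial cells for 7 of 8 compared, and none was lower. This list was likewise chosen after its values had been seen. Etv1 was used by the rule, and the other mesenchymal cells had no UMI of it. No relation of Etv1 to these genes is read from these values. Dusp6, an ERK phosphatase, stood at 429 CPM at 3 DPI, 429.6 in uninjured and 58.4 in other mesenchymal cells. Spry4 stood at 102, 130.5 and 10.8 CPM and the ETS factor Etv4 at 76.4, 19.1 and 5.89. Against uninjured cells 2 of the 8 genes, Spred1 and Etv4, were higher. Dusp6 was thus at the same level in injured and uninjured endoneurial cells and lower in the other mesenchymal cells.

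Signal genes divided the mesenchymal classes. Of 9 CC chemokines, 4 were higher in the endoneurial cells (Ccl2, Ccl7, Ccl9 and Ccl11) and 5 lower. The lower genes included Ccl6 (13.7 against 209.7 CPM, with 1272 in Ptprc-positive cells). Of the IL-6 and IL-1 family genes 4 of 8 were higher and 1 lower, with Lif at 66.1 against 5.89 CPM. Of the axon guidance ligands 6 of 12 were higher and 3 lower, with Efnb2 at 111 against 24.6 CPM and Sema3c lower at 33.6 against 319. All 8 epineurial markers compared were lower, with a median log2 ratio of -3.39. Sfrp4, a Wnt inhibitor, stood at 245 against 2104 CPM, 1 of 5 lower genes among 8 Wnt ligands and modulators. Of the interferon and antigen presentation genes, 8 of 15 were lower and none higher. Complement C3 was also lower, at 263 against 1443 CPM. Wnt5a stood at 33.1 against 60.9 CPM.

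The third comparison asked whether injured adult endoneurial cells resemble those of the developing nerve. The neonatal cells had far more transcripts of imprinted growth genes and of several collagens, and the injured cells far more of acute phase, glycolytic and protease inhibitor genes. A gene was counted when it was at least 2-fold apart from each neonatal library. Of 6584 genes, 612 were higher at 3 DPI (9.30%) and 393 lower (5.97%). The neonatal libraries differ from each other in preparation and in the age of the pups, and all 3 comparisons use the same 3 DPI cells.

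Spp1, Ccl9 and Timp1 were among the 12 genes with the largest ratios over both neonatal libraries. Efemp1, a fibulin of the matrix, stood at 695 CPM at 3 DPI, 515 in uninjured, 7.26 in neonatal FACS and 0 in neonatal bead cells. Ly6a, a surface protein of many adult stromal cells, stood at 444, 264, 9.68 and 3.72 CPM and Medag at 321, 249.8, 7.26 and 0. These 3 genes were present in both adult classes and nearly absent from both neonatal classes. Of the acute phase genes, 14 of 19 were higher at 3 DPI and none lower, of the glycolysis genes 11 of 19 and none, and of the matrix-cutting enzymes and inhibitors 11 of 21 and none.

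Igf2, a fetal growth factor, stood at 22.8 CPM at 3 DPI, 41.4 in uninjured, 5231 in neonatal FACS and 4137 in neonatal bead cells. Dlk1, a membrane protein of fetal mesenchyme, stood at 23.4, 22.3, 5105 and 4785 CPM, and Cdkn1c, a cell cycle inhibitor, at 35.9, 204, 1863 and 1579. All 3 are imprinted and were much higher in both neonatal libraries than in either adult class. Of 14 imprinted growth genes compared, in a list also chosen after its values had been seen, 10 were lower at 3 DPI and none higher. H19 was a partial exception, at 1129 CPM at 3 DPI and 85.9 in uninjured cells, against 6702 and 7835 in the neonatal cells. H19 was thus 13.1-fold higher after injury, but stayed below both neonatal levels. The other mesenchymal cells differed likewise, with H19 at 1247 CPM at 3 DPI and 182 uninjured.

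Some genes were high in both injured and neonatal cells. Fbn2, a fibrillin of developing tissue, stood at 618 CPM at 3 DPI, 12.7 in uninjured, 784 in neonatal FACS and 883 in neonatal bead cells, so the uninjured cells stood apart as low. It was 48.5-fold (24.5 to 113) higher than in uninjured cells and within 2-fold of both neonatal libraries. Sox4, a factor of progenitor cells, stood at 200.1, 20.7, 174 and 115 CPM in the same pattern. Fstl1, a follistatin-like glycoprotein, stood at 3555, 1082, 3133 and 3277 CPM. Col12a1, a collagen on the surface of fibrils, stood at 74.1, 1.59, 138 and 119 CPM. Col11a1 stood at 326, 98.6, 1125 and 923 CPM, between the uninjured and the neonatal levels. Col3a1 was lower at 3 DPI than in every other endoneurial class (32503 CPM in neonatal FACS and 27030.1 in neonatal bead cells). Mdk, which encodes the growth factor midkine, stood at 109, 81.1, 1169 and 756 CPM, 1 of 4 neurotrophic factors of 6 that were lower at 3 DPI. Mbp, a myelin gene, was also among the 12 genes furthest below the neonatal cells, whose Schwann marker sums were 3124 (FACS) and 1125 CPM (beads).

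The 234 cells were not alike. The 50 cells without a Wif1 UMI were little shallower than the 184 cells with one (median 6265 against 6932 UMIs). Most of the genes given here were picked for their large ratio between these groups of cells. Cells with Wif1 had more Trf (2861 against 396 CPM), Ccl9 (921 against 117), A2m, a broad protease inhibitor (274 against 28.5), and Apod (57673 against 9523). Cells without Wif1 had more of the metalloproteinase Mmp9 (482 against 29.2 CPM), the retinoid-binding Crabp1 (316 against 29.9), the proteoglycan Aspn (459 against 55.6) and the activin inhibitor Fst (199 against 22.1). The Mmp9 value rests on few cells, since a single cell without Wif1 held a large part of its UMIs. Wif1 is part of the rule, so a cell without it had to reach the limit with the other 5 genes.

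**Figure D5:**
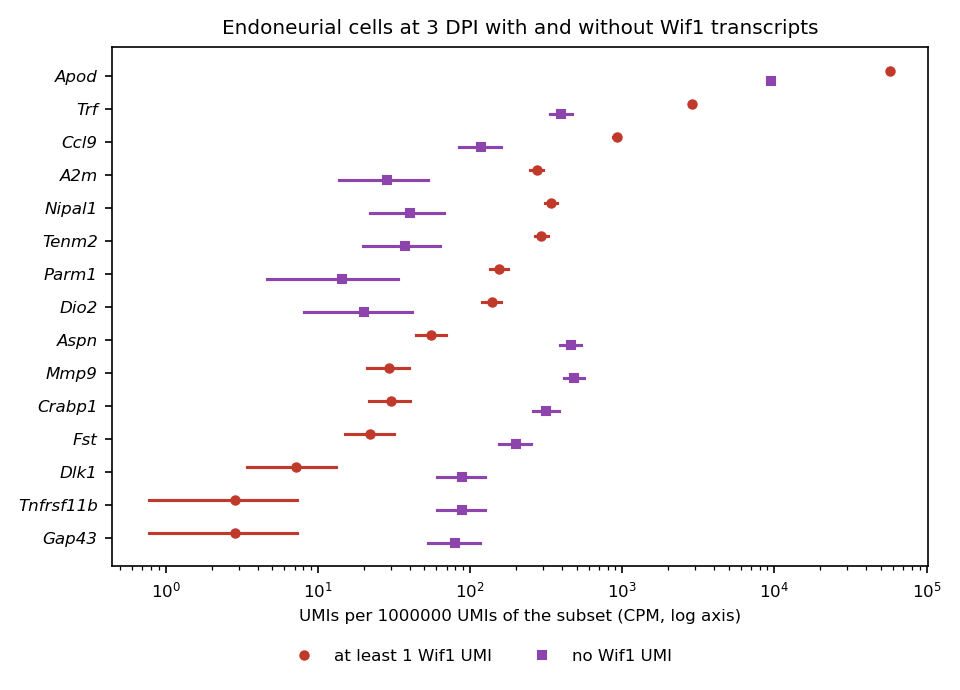
CPM on a log axis of 15 genes in the 184 endoneurial cells at 3 DPI with a Wif1 UMI (circles) and the 50 without one (squares). Bars are exact Poisson 95% intervals. The genes from Apod to Dio2 lie higher in cells with Wif1 and those from Aspn to Gap43 higher in cells without it. Most of these genes were picked for their large ratio between the same cells, so their separation describes that choice. The Mmp9 value of the cells without Wif1 rests on few cells, which its bar does not show.

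The clusters gave a similar division. All values here are sums over the endoneurial cells in a cluster, not over the whole cluster. The 170 endoneurial cells of the cluster that held most of them, the main cluster, had 56454 CPM of Apod and 838 of Wif1. Another 25 fell into a cluster of 201 shallow cells (median 650 UMIs), whose leading genes included Gcg and Apod, and these 25 cells had 89788 CPM of Apod. The 15 cells in a cluster led by Dlk1, Lrrc15 and Postn, genes of bridge-like mesenchymal cells, had 1652 CPM of Apod, 864 of Aspn and 1934 of Postn, against 47.2 and 366 in the main cluster. A cluster of 88 cells had Il1rl1, Mmp9 and Areg among its leading genes together with genes of cell division such as Bub1, Kif4 and Plk1, and 78 of its 88 cells had a UMI of Top2a or Mki67. Its 14 endoneurial cells, of which 78.6% had a UMI of Top2a, held 3013 CPM of Apod and 500.1 of Inhba, against 124 of Inhba in the main cluster. Sox9 stood at 291, 379.6 and 421 CPM in the endoneurial cells of the bridge-like, main and dividing clusters, whereas Apod, Trf and Ccl9 were low in both small ones. The values of genes that lead a cluster describe that cluster. These 29 cells met the rule but lay outside the main cluster and had little Apod, so the label is less sure for them. Low Apod alone does not decide it, since Apod was also lower in the neonatal endoneurial classes. In the 170 cells of the main cluster Mmp9 stood at 19.3 CPM, Il1rl1 at 5.0 and Areg at 20.0, against 1055, 476 and 146 in the 14 cells of the dividing cluster. These 14 cells held 173 of the 210 Mmp9 UMIs, 78 of the 88 Il1rl1 UMIs and 24 of the 52 Areg UMIs of the whole group. Timp1 (2074 and 1482 CPM) and Ccl2 (2625 and 1183) were found in both. Saa3 stood at 465 CPM in the main cluster and had 1 UMI in the 14 cells.

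Depth and division moved together. In the deeper 117 cells Top2a stood at 195 CPM and in the shallower 117 at 39.8. The shallower cells had more lubricin, Prg4 (70.7 against 13.1 CPM). Sfrp5 and Mmp3 were also higher in them, but a single cell held 85 of the 97 Sfrp5 UMIs and a single cell 59 of the 75 Mmp3 UMIs. Cells with a UMI of Top2a or Mki67 had a median of 10136 UMIs, against 6374 in the rest. They held Spp1 at 8359 CPM and Timp1 at 1664, against 9004 and 2016 in the rest, so the injury genes were present in both.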

How the data were processed

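Nerve cells of 4 libraries were measured by Drop-seq. The deposited files held raw UMI counts per gene and barcode, which the authors made with the Drop-seq tools, and the submitters' processing notes name the genome build mm10. The aligner's version and the number of animals pooled per library were not given in the sources used here. A gene missing from a matrix was taken as 0 counts.

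Cells were chosen by the rule given at the start, and UMI counts were summed per class and divided by the class total (CPM). Classes were compared by the ratio of CPM, with exact Poisson intervals for levels and exact conditional binomial intervals for ratios (Python 3.11.15, scipy 1.17.1). A gene counted as higher or lower at 2-fold or more with at least 25 CPM in the higher class, and genes of the rule were left out. A gene that reached 25 CPM in only 1 class could therefore count only in the direction of that class. A class at 0 was set to a floor of 3 UMIs, and the ratio was then given as a lower bound. Shares of cells had exact Clopper-Pearson intervals. The script was tested on simulated counts. Doublets were not called for the values in the text. Clusters came from 2000 variable genes, 30 principal components, 15 neighbours and a Leiden resolution of 1 (scanpy 1.11.5). Total UMIs per library and class and their depth set the precision. Reads shared by close gene copies may have been counted for either copy.

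The cells and gene lists were chosen with earlier results of these data known. Named genes were the 12 with the largest ratio in each direction at 50 CPM or more, up to 4 called members of each list by CPM and the defining members of lists. Other named genes, those of the subsets and clusters, and 4 lists (cholesterol, cartilage matrix, ERK feedback and imprinted genes) were chosen after their values were seen. Some genes are not reported here.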

Additional observations from a re-analysis of the deposited data

How the results depend on the processing

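Each condition was 1 library, so no library could be left out and no spread between animals is known, and depth limits the rarer genes. No paired analysis was possible because the groups are single libraries and no test was run. The numbers of higher and lower genes were recomputed with other limits on genes or mt- UMIs per cell, other endoneurial sums, cells weighted equally, doublet scores, dividing cells left out and other mesenchymal classes, and, chosen after seeing the data, with the sum without Wif1, other mesenchymal cells with a Pdgfra UMI and only the 3 DPI cells of the cluster that held most of them. Under all of these they stayed within 1.5 times the values given, but the genes behind the counts changed more. With the Pdgfra limit, 451 of the 683 genes lower than in other mesenchymal cells stayed lower (66.0%). The other settings in this list kept 82.1% or more of the genes called against uninjured or other mesenchymal cells. Thinning kept 913 of the 1327 genes higher than in uninjured cells (68.8%). Thinning gave 1036 genes lower than in uninjured cells, 628 higher and 1205 lower than in other mesenchymal cells, and a dividing share of 6.14%. At 10 CPM, 2141 genes were higher and 955 lower than in uninjured cells, 1239 lower than in other mesenchymal cells and 650 lower than in neonatal cells. At 100 CPM, 435 and 224 were higher and lower than in uninjured, 162 and 212 than in other mesenchymal and 243 and 130 than in neonatal cells, and at 3-fold these were 584 and 264, 179 and 384, and 292 and 163. Fewer or more genes pass such limits by construction. With ratios divided by their median, 865 genes were higher and 911 lower than in uninjured cells. Of 1039 recomputed ratios of named genes, 1013 stayed past 2-fold in their direction and 25 fell within 2-fold, including Col3a1, Mmp2, Adamts1, Bmp5 and Twist1. The ratio of Sfrp2 to uninjured cells changed direction (log2 0.61) without the highest doublet scores, and the cause was not tested. With the cells of that cluster alone Il1rl1 and Dkk2 were within 2-fold of uninjured cells.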
